A study of Homo sapiens with 8 samples.

Results

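The expression of 10 markers and transcription factors of the epithelial-mesenchymal transition (EMT) was evaluated on 8 two-color Agilent arrays of human lung cancer cell lines. The genes were *CDH1*, *EPCAM*, *CDH2*, *VIM*, *FN1*, *SNAI1*, *SNAI2*, *ZEB1*, *ZEB2* and *TWIST1*, found by symbol through the accession of each probe. They are 10 of 22439 named genes and are read by 15 of 58201 probes. Each array carried treated RNA in Cy5 (red) against control RNA of its own line in Cy3 (green), and no dyes were swapped.

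For *miR-150-3p* transfection, EBC-1 had 1 array and SK-MES-1 had 1, and both lines are labeled lung squamous cell carcinoma (LUSQ). There were 3 arrays of SBC-3 cells, labeled small cell lung cancer, transfected with siDONSON-1, siDONSON-2 or siDONSON-3, which are siRNAs against the replication gene *DONSON*. The last 3 arrays were of A549 cells, labeled lung adenocarcinoma, with *LOXL2* edited by CRISPR/Cas9 (GE1, GE2 and GE3). *LOXL2* encodes a lysyl oxidase of the extracellular matrix, and the sources used here do not say whether GE1 to GE3 are clones. The controls of the transfections are called both mock and untransfected in the labels, and the control of the edited cells was unedited A549. The study's methods describe only the *miR-150-3p* arrays. No source says whether the controls of a line were separate cultures, so p-values measure only the spread between these arrays, which may be technical.

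In the EMT, epithelial cells lose their junctions and polarity and gain the shape and motility of mesenchymal cells. The junction protein E-cadherin (*CDH1*) is typically lost, while N-cadherin (*CDH2*), vimentin (*VIM*) and fibronectin (*FN1*) are typically gained. The transcription factors of the SNAI, ZEB and TWIST families bind E-box sequences, and several of them repress *CDH1*. In carcinomas of the lung the program is often partial, so that epithelial and mesenchymal genes are expressed in the same cells.

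The targeted genes were measured first. *LOXL2* had log2 ratios of edited over control of -2.49, -2.67 and -2.59 on the 3 A549 arrays, and *DONSON* had -2.15, -1.79 and -2.11 on the 3 SBC-3 arrays. Both targets were therefore lower on each of their arrays. Between 41.1% and 46.4% of spots were well above background in green, and between 48.5% and 56.2% in red. The labeled types were checked with markers in the green channel. Of 6 squamous markers, only *SOX2* was above background in EBC-1, and *TP63*, *KRT14* and *SOX2* were in SK-MES-1, while *KRT5* was in neither. Of 6 small cell and neuroendocrine markers, *CHGA*, *SYP* and *NEUROD1* were above background in SBC-3. Of 6 adenocarcinoma and alveolar markers, *NAPSA* and *KRT7* were above background in A549, and *NKX2-1* was not. Several of these markers were not restricted to the labeled type, as *SOX2* and *KRT7* were above background in all 4 lines, *TP63* also in SBC-3, *CHGA* also in A549 and *NAPSA* also in both LUSQ lines. The neuroendocrine marker *NCAM1* was above background in SK-MES-1 and not in SBC-3. With *SFTPC*, SK-MES-1 had 3 of the 6 adenocarcinoma and alveolar markers above background, and A549 had 2. In SK-MES-1 *SFTPC* (4.96 in log2 units) and *NAPSA* (4.97) were near the lowest green signal counted there as above background (4.78). Both had higher green signals in A549 (5.25 and 6.05), as had *KRT7* (17.50 in A549 and 16.21 in SK-MES-1).

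Promoter sequence is shown for *ZEB1*, an E-box factor, and for *FN1*, which was lower in the edited A549 cells. The RefSeq table (GRCh38.p14) held windows from 250 bases before to 50 after the start for 5 of the 10 genes (*CDH2*, *VIM*, *ZEB1*, *ZEB2* and *FN1*), with 12 windows in all. They were searched for the E-box core CACCTG and its reverse complement CAGGTG. These letters were found in 2 of the 12 windows, both of *ZEB1*, and in 20.6% of all 35116 promoter windows. In capitals are the matches, which in the *ZEB1* window start at positions -242, -85 and 34 from the start of transcription. A match is a description of the letters and not a binding site.
ZEB1, chr10:31318966-31319265, plus strand: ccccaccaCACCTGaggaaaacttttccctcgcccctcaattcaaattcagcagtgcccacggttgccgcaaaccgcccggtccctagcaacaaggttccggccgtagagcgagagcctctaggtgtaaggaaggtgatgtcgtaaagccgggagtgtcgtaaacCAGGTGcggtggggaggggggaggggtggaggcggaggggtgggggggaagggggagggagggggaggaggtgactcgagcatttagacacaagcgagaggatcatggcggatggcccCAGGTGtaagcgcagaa
FN1, chr2:215436019-215436318, minus strand: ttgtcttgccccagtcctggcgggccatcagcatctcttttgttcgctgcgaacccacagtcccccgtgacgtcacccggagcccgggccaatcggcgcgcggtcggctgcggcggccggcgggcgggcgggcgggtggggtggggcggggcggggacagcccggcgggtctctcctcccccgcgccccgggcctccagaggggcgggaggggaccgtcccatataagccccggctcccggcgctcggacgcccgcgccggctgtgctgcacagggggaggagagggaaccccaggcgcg
The 2 windows have GC contents of 61.7% and 76.7%.

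The 4 control lines differed widely in these genes. The level of a gene is the log2 intensity of the green channel after normalization between arrays, and it was compared between lines and never between genes. EBC-1 had the highest levels of both epithelial markers, and *ZEB1*, *ZEB2*, *TWIST1* and *FN1* were not well above background there. SBC-3 had neither *CDH1* nor *EPCAM* well above background and had the highest levels of *SNAI2* and *ZEB1*. SK-MES-1 and A549 had *EPCAM* together with *VIM*, *FN1*, *ZEB1* and *TWIST1*, and *CDH1* was above background in A549 alone of these 2. In bulk RNA, fewer cells of a type and less RNA per cell cannot be told apart.

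*CDH1*, the adhesion protein of epithelial junctions, had a level of 13.74 in EBC-1, of 8.59, 8.56 and 8.58 in A549, of 2.86 in SK-MES-1, and of 2.77, 2.74 and 2.70 in SBC-3. It was not well above background on the SK-MES-1 array or on any SBC-3 array. The level in EBC-1 was 35.8-fold that in A549, with a log2 difference of 5.16 (SE 0.05, adjusted p = 7.01e-08, limma with Benjamini-Hochberg adjustment over 16014 genes). It exceeded the SK-MES-1 level at least 498-fold and the SBC-3 level at least 375-fold. These lower bounds set the bright line against the lowest signal counted as above background on the dim arrays. A549 was at least 13.9-fold above SK-MES-1 and at least 10.5-fold above SBC-3. These bounds hold for the software's background correction. With normexp and loess, whose offset of 50 shrinks differences of dim signals, *CDH1* in EBC-1 was 20.1-fold above A549 and 47.1-fold above both SK-MES-1 and SBC-3, and A549 was 2.34-fold above each of the latter. No order was given to SK-MES-1 and SBC-3, where the gene was near background.

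*EPCAM*, an adhesion molecule of epithelial cells, had a level of 14.06 in EBC-1, of 9.76 in SK-MES-1, of 9.08, 9.01 and 9.09 in A549, and of 3.76, 3.14 and 3.10 in SBC-3. It was not well above background on any SBC-3 array. EBC-1 was 19.7-fold above SK-MES-1 (log2 difference 4.30, SE 0.32, limma adjusted p = 0.00012) and 32-fold above A549 (5.00, SE 0.26, limma adjusted p = 1.89e-05). SK-MES-1 and A549 did not differ beyond the spread between arrays (0.70, SE 0.26, limma adjusted p = 0.057). Without the siDONSON-1 array, which the fit uses for the spread, the limma adjusted p was 0.000491 for the same difference.

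The genes of the mesenchymal state were ordered differently. *VIM*, an intermediate filament of mesenchymal cells, had a level of 17.25 in SK-MES-1, of 16.41, 16.37 and 16.38 in A549, of 14.15 in EBC-1, and of 12.61, 12.47 and 12.55 in SBC-3. Each neighbor in this order differed from the next, as SK-MES-1 was 1.83-fold above A549, A549 was 4.72-fold above EBC-1 and EBC-1 was 3.04-fold above SBC-3, with limma adjusted p of 8.46e-05, 2.08e-06 and 4.76e-06. *CDH2*, the cadherin of mesenchymal and neural cells, had 12.05 in SK-MES-1, 11.03 in EBC-1, 10.42, 10.50 and 10.45 in A549, and 9.72, 9.55 and 9.69 in SBC-3. It was well above background in every line, and the highest line was 5.26-fold above the lowest (log2 difference 2.40, SE 0.08, limma adjusted p = 2.87e-06).

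*FN1*, a glycoprotein of the extracellular matrix, had a level of 8.56 in SK-MES-1, of 8.33, 8.23 and 8.29 in A549, and of 5.00, 5.39 and 5.44 in SBC-3. It had 2.61 in EBC-1, not well above background, and it was above background on 1 of the 3 SBC-3 arrays. SK-MES-1 and A549 did not differ beyond the spread (0.28, SE 0.18, limma adjusted p = 0.208), but without the siDONSON-1 array the limma adjusted p was 0.0118. Against EBC-1, *FN1* was at least 8.96-fold higher in SK-MES-1 and at least 7.38-fold higher in A549. These bounds hold for the software's background correction, and normexp and loess gave 2.12-fold and 1.92-fold for *FN1*. *FN1* was read by 1 probe, named from 1 transcript of the gene. Whether that probe detects all *FN1* transcripts was not tested.

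Among the transcription factors, the SNAI genes and the ZEB genes did not follow each other over the lines. *SNAI1*, a zinc finger repressor of *CDH1*, had a level of 10.45 in EBC-1, of 10.05, 10.03 and 10.07 in A549, of 8.56 in SK-MES-1, and of 7.35, 7.32 and 7.26 in SBC-3. It was thus highest in the line with the highest *CDH1*. EBC-1 was 1.32-fold above A549 (log2 difference 0.40, SE 0.05, limma adjusted p = 0.000897) and 8.85-fold above SBC-3 (3.15, SE 0.05, limma adjusted p = 2.24e-07).

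*SNAI2*, the paralog of *SNAI1*, had its highest level in SBC-3, at 11.34, 11.28 and 11.37. It had 9.22 in SK-MES-1 and 7.27 in EBC-1. In A549 it had 4.34, 4.22 and 4.47 and was not well above background on any array. SBC-3 was 4.32-fold above SK-MES-1, 16.7-fold above EBC-1 and at least 87.7-fold above A549, with limma adjusted p of 1.06e-05, 8.76e-07 and 2.54e-08. With normexp and loess *SNAI2* in SBC-3 was 3.29-fold, 6.88-fold and 9.8-fold above these lines.

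*ZEB1*, an E-box repressor of epithelial genes, had a level of 9.96, 9.99 and 10.02 in SBC-3, of 9.35, 9.45 and 9.40 in A549, of 8.97 in SK-MES-1 and of 3.90 in EBC-1. It was not well above background in EBC-1, where *CDH1* was highest, and was at least 24.1-fold higher in SBC-3, at least 16-fold higher in A549 and at least 11.8-fold higher in SK-MES-1, where normexp and loess gave 4.3-fold, 3.15-fold and 2.58-fold for *ZEB1*. The differences among the other lines were smaller, with SBC-3 1.51-fold above A549 (limma adjusted p = 3.2e-05) and A549 1.35-fold above SK-MES-1 (limma adjusted p = 0.000864).

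*ZEB2*, its paralog, was well above background in SBC-3 and A549 and in neither LUSQ line. In SBC-3 and A549 its signal was near the lowest counted as above background (5.11 to 5.23 and 4.82 to 4.93). It had levels of 5.71, 6.20 and 5.95 in SBC-3 and of 5.64, 5.84 and 5.82 in A549, which did not differ beyond the spread (log2 difference 0.19, SE 0.14, limma adjusted p = 0.248). It was at least 2.26-fold higher in SBC-3 than in SK-MES-1 with the software's background correction, and 1.21-fold higher with normexp and loess. *TWIST1*, a basic helix-loop-helix factor, had 8.03 in SK-MES-1 and 6.78, 6.63 and 6.79 in A549, and was not well above background on the EBC-1 array, where it had 2.98, or on the SBC-3 arrays, where it had 4.96, 4.66 and 3.99. SK-MES-1 was 2.45-fold above A549 (log2 difference 1.30, SE 0.36, limma adjusted p = 0.0194), which was not past the threshold when dim probes were kept (0.53, limma adjusted p = 0.174). Of the probes of *TWIST1*, the other one was dim on every array.

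All 10 genes passed the limma test between EBC-1 and SK-MES-1, beside 68.9% of all genes tested. All 10 also passed between EBC-1 and SBC-3 (78.6% of all genes) and between EBC-1 and A549 (75.3%). There were 9 that passed between SK-MES-1 and SBC-3 (78.6%), 8 between SK-MES-1 and A549 (71.9%) and 9 between SBC-3 and A549 (82.2%). As most genes of the array passed, these counts are close to the background. They include *ZEB2* between EBC-1 and SK-MES-1 and *TWIST1* between EBC-1 and SBC-3, which were not well above background in either line and are given no fold. EBC-1 and SK-MES-1 had 1 array each and were assumed to vary like the arrays of SBC-3 and A549.

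The other epithelial genes were counted in the same way. Of 39 such genes on the array, including claudins, keratins and desmosomal proteins, 39 were well above background in EBC-1, 30 in SK-MES-1, 28 in A549 and 21 in SBC-3. Over all named genes the share above background was 58.9%, 64.6%, 61% and 58.4% in these lines. Of 38 mesenchymal genes, 23 were above background in EBC-1, 29 in SK-MES-1, 25 in A549 and 21 in SBC-3. The genes whose pattern over the 4 lines was most like that of *CDH1* were *PDZK1IP1*, *CRB3* and *EHF*, with root mean square differences of 1.46, 1.56 and 1.72 log2 units after centering. *CRB3* is a polarity protein, *EHF* is an epithelial transcription factor, and both were on the epithelial list. The genes most like *ZEB1* were *BAMBI*, *OSBPL6* and *CXCL5*, with differences of 0.15, 0.21 and 0.33. This likeness is over 4 line means and 16013 genes and is a description only.

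The effect of *LOXL2* editing in A549 was then assessed. Of the 10 genes, *CDH1* and *SNAI1* were higher and *EPCAM* and *FN1* were lower in the edited cells, and the other 6 did not pass the test. The 2 higher genes stand beside 7.58% of 15531 genes tested that were higher, and the 2 lower genes beside 6.77% that were lower. At an unadjusted p under 0.05 there were 7 of the 10, but the share of all genes at this threshold was not counted. The epithelial markers thus moved in opposite directions, as *CDH1* rose and *EPCAM* fell on all 3 arrays.

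**Figure D1:**
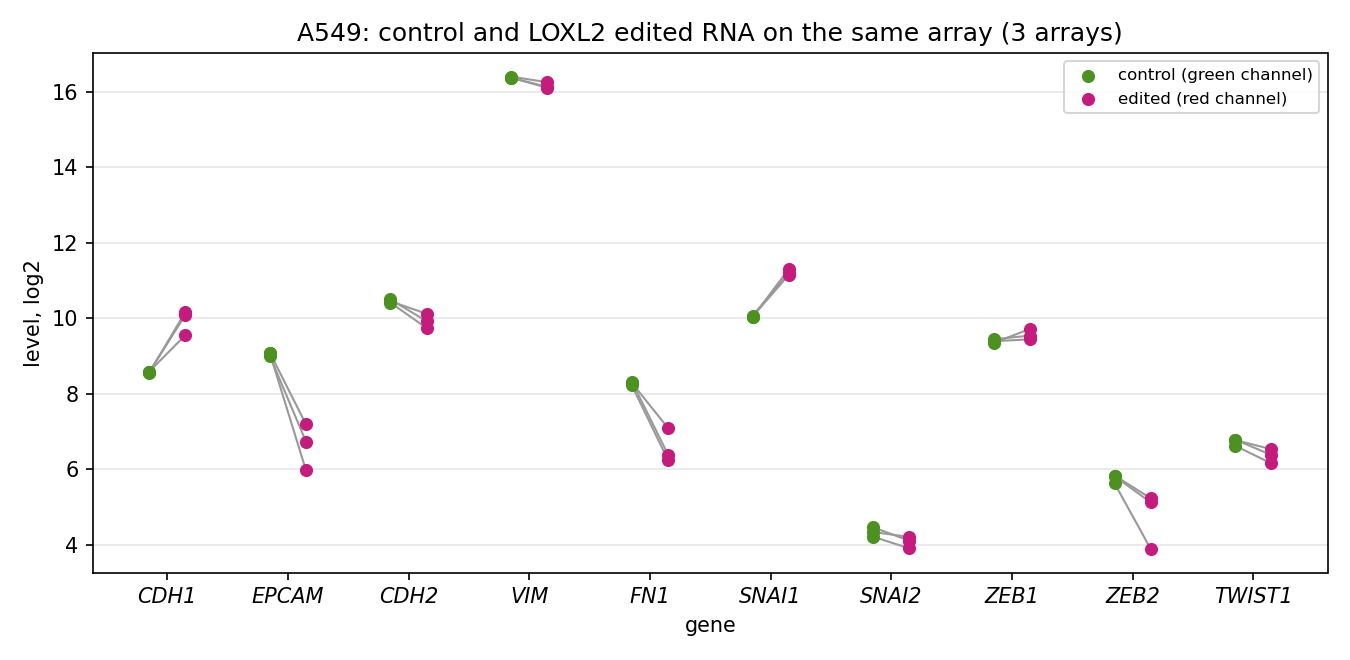
The log2 level (y axis) of each of the 10 genes (x axis) is plotted for control RNA (green channel, left) and *LOXL2* edited RNA (red channel, right), with lines that join the channels of each of the 3 A549 arrays. *CDH1* goes from between 8.56 and 8.59 to between 9.56 and 10.17, and *EPCAM* goes from between 9.01 and 9.09 to between 5.97 and 7.19.

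*CDH1* had log2 ratios of edited over control of 0.97, 1.61 and 1.51 on the GE1, GE2 and GE3 arrays. All 3 were above 0 and outside the 95% limits of the scanner software's error. The mean was 1.36 (SE 0.16, n = 3, limma adjusted p = 0.0115), a 2.57-fold rise. Its level in the edited cells, 9.56, 10.17 and 10.09, stayed below the 13.74 of control EBC-1. The fit of *CDH1* rests on 4 arrays, as it was counted on no other, and the limma adjusted p was 0.075 without GE2 and 0.0769 without GE3.

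*EPCAM* had ratios of -3.11, -2.27 and -1.90. All 3 arrays were low, with the lowest value in GE1. The mean was -2.43 (SE 0.23, n = 3, limma adjusted p = 0.00387), 5.38-fold lower than in the control. With another background correction, normexp followed by loess, which shrinks ratios of dim probes, the mean was -1.13 (limma adjusted p = 0.00115).

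*FN1* had ratios of -1.94, -1.98 and -1.20, again below 0 on every array. The mean was -1.70 (SE 0.22, n = 3, limma adjusted p = 0.00606), 3.26-fold lower than in the control. Under normexp and loess it was -0.67 (limma adjusted p = 0.00156). These are values of the 1 probe of *FN1*, which may not detect all its transcripts. Leaving out GE1, GE2 or GE3 gave means of -1.59, -1.57 and -1.96 with limma adjusted p of 0.0442, 0.0489 and 0.0176.

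*SNAI1* had ratios of 1.11, 1.28 and 1.12, the narrowest range of the 4 genes that passed. The mean was 1.17 (SE 0.13, n = 3, limma adjusted p = 0.00262), a 2.25-fold rise, and the call held in each of 17 alternative settings. *SNAI1* and *CDH1* thus rose on the same arrays.

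The other factors and markers gave smaller changes that did not pass. *CDH2* had -0.67, -0.58 and -0.33, with a mean of -0.53 (SE 0.15, limma adjusted p = 0.0516). It passed in 7 alternatives, among them without the siDONSON-1 array (limma adjusted p = 0.0205) or the siDONSON-2 array (0.0458). *ZEB2* had -1.74, -0.60 and -0.69, with a mean of -1.01 (SE 0.27, limma adjusted p = 0.0536), and it passed in 5 alternatives, among them without the siDONSON-2 array (0.0413) and under normexp and loess (0.0461), where the mean was only -0.14. On the GE1 array the red channel was above background at 1 of its 3 probes.

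*ZEB1* had 0.37, 0.10 and 0.05 (mean 0.17, SE 0.14, limma adjusted p = 0.458), and *VIM* had -0.15, -0.24 and -0.27 (mean -0.22, SE 0.22, limma adjusted p = 0.544). *TWIST1* had -0.24, -0.47 and -0.41 (mean -0.37, SE 0.12, limma adjusted p = 0.105). *SNAI2* had -0.13, -0.31 and -0.35 (mean -0.27, SE 0.16, limma adjusted p = 0.289), but its green signal was not well above background on any of the 3 arrays, so no fold is given. The pair of ZEB genes differed in sign and neither passed.

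**Figure D2:**
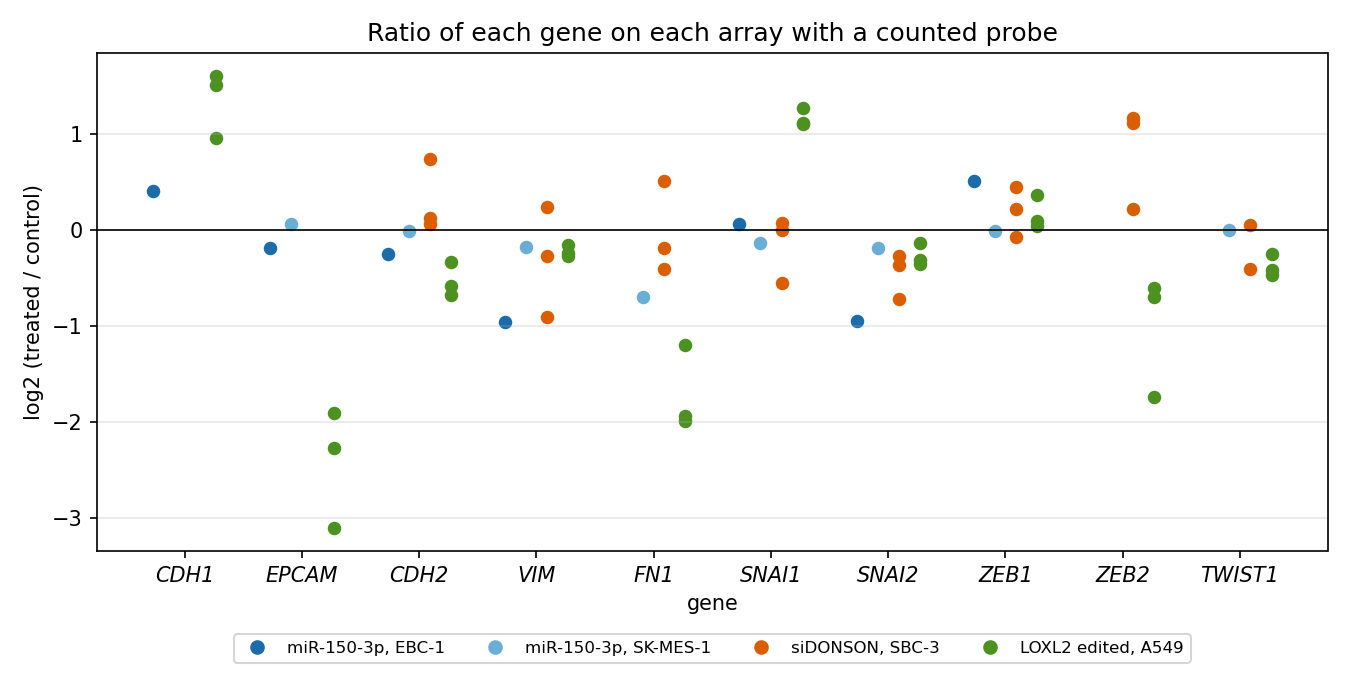
The log2 ratio of treated over control RNA (y axis) of each of the 10 genes (x axis) is plotted for each array with a counted probe, colored by treatment and line, and the line at 0 marks equal signal. In edited A549 cells *EPCAM* reaches -3.11 and *CDH1* 1.61, while in the other treatments no gene falls below -0.96 or rises above 1.17.

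The related genes gave the setting of these changes in edited A549 cells. Of 32 epithelial genes tested, 14 were lower and 3 were higher, with a median log2 ratio of -0.08 beside 0.02 over all genes. Over all genes 6.77% were lower and 7.58% higher, so the count of higher epithelial genes is near the background. The lower genes included the tight junction genes *OCLN* (-1.33, SE 0.11), *CLDN1* (-1.12, SE 0.10), *CLDN3* (-1.26, SE 0.14) and *CLDN4* (-1.10, SE 0.25), and the simple keratins *KRT19* (-1.54, SE 0.13), *KRT18* (-0.75, SE 0.10) and *KRT8* (-0.53, SE 0.09). The transcription factors *GRHL1* (-1.16, SE 0.13) and *EHF* (-0.81, SE 0.17), the desmosomal *PKP2* (-1.31, SE 0.26) and the polarity gene *CRB3* (-0.78, SE 0.19) were lower too, as were *MARVELD2* and *LSR* of tricellular junctions. The 3 higher genes were *TJP3* (1.74, SE 0.15), *CLDN7* (0.81, SE 0.17) and *F11R* (0.68, SE 0.16), which also belong to the tight junction. The software's errors were large for *TJP3* (0.76, 0.90 and 0.52 on GE1, GE2 and GE3) and *EHF* (0.47, 0.49 and 0.43). Among the values within the 95% limits of that error were *TJP3* on GE2 (1.67), *EHF* on GE3 (-0.41) and *CLDN7* on GE1 (0.41). The fit of *TJP3* rests on 4 arrays. With any of the 3 edited arrays left out the count of lower genes was 7, 6 and 7, and that of higher genes was 2, 1 and 1. Over all genes, lower calls then fell from 1051 to 265, 208 and 270 (of 15722, 15695 and 15689 tested). Higher calls over all genes fell from 1178 to 323, 262 and 309.

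**Figure D3:**
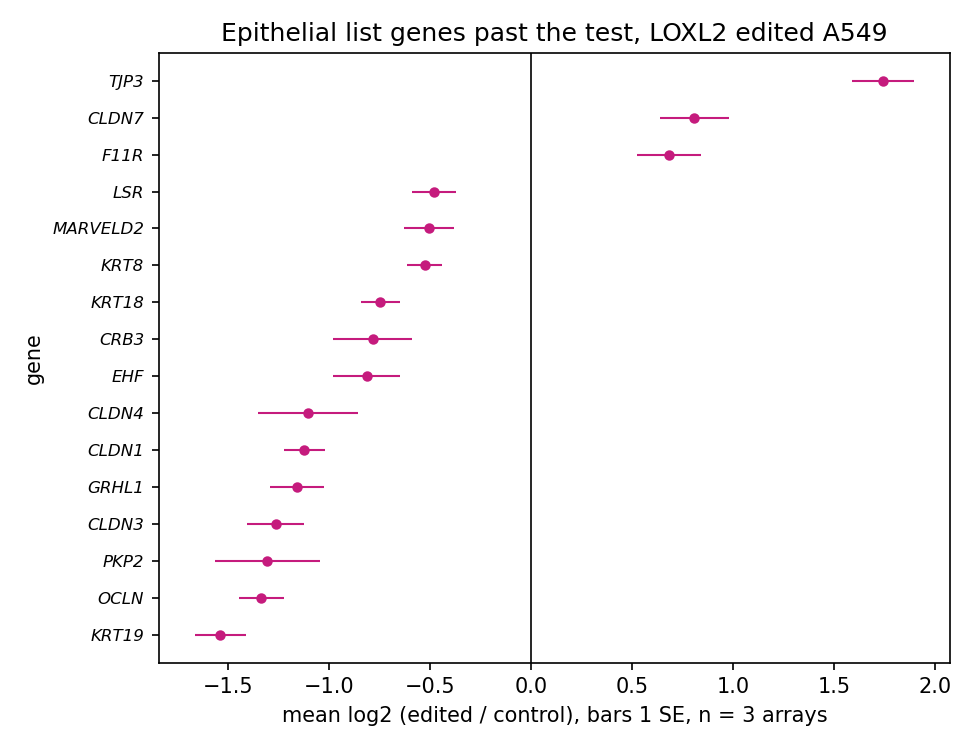
The mean log2 ratio of edited over control A549 RNA (x axis, bars 1 SE, n = 3 arrays) is plotted for 16 of the 17 epithelial genes that passed the limma test (y axis). There are 13 genes to the left of 0, from *KRT19* at -1.54 to *LSR* at -0.48, and 3 to the right, and genes that did not pass are not drawn.

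Of 27 mesenchymal genes tested, 1 was lower and 3 were higher in edited A549 cells, with a median of 0.17 beside 0.02 over all genes. Over all genes 6.77% were lower and 7.58% higher, so these counts are near the background. *VCAN*, a matrix proteoglycan, had -3.23, -3.66 and -4.38 (mean -3.76, SE 0.23, limma adjusted p = 0.000775), 13.5-fold lower. *COL5A1*, a fibrillar collagen, had 1.23, 1.33 and 1.34 (mean 1.30, SE 0.11, limma adjusted p = 0.00103), and *ACTA2*, smooth muscle actin, had 1.11, 0.71 and 0.95 (mean 0.92, SE 0.14, limma adjusted p = 0.0067). The third higher gene was *TAGLN* (0.70, SE 0.19). The matrix genes *VCAN* and *FN1* thus fell while *COL5A1* rose.

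Of 36 other regulators of the EMT, 5 were lower and 3 were higher, with a median of -0.10. Beside the same shares over all genes, the count of higher regulators is near the background. *FOXQ1*, a forkhead factor, had 3.35, 3.77 and 3.10 (mean 3.41, SE 0.29, limma adjusted p = 0.00304), 10.6-fold higher. *FOXA1*, a forkhead factor of epithelial cells, had -1.76, -1.77 and -1.26 (mean -1.60, SE 0.20, limma adjusted p = 0.00833). *ID2*, an inhibitor of helix-loop-helix factors, had -1.72, -1.56 and -1.72 (mean -1.67, SE 0.22, limma adjusted p = 0.00428), and *SOX4* had 0.83, 0.30 and 0.78 (mean 0.64, SE 0.12, limma adjusted p = 0.0141). *KLF4* and *HMGA2* were also lower, and *FOXC1* was the other higher gene. With any edited array left out, there were 2, 2 and 3 lower and 1, 2 and 1 higher regulators. Calls over all genes then fell from 2229 to 588, 470 and 579.

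After siDONSON transfection of SBC-3 cells, 0 of 7 genes tested passed the limma test, beside 3.21% of all 14453 genes that were lower and 4.01% that were higher. At an unadjusted p under 0.05 there were 2, *SNAI2* and *ZEB2*, and the share of all genes at this threshold was not counted. *CDH1* and *EPCAM* were not counted on any SBC-3 array and *TWIST1* was not counted on the siDONSON-3 array, so these 3 were not tested. The test takes the 3 different siRNAs as 3 samples, so its spread includes differences between siRNAs.

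*SNAI2*, at its highest level in this line, had ratios of -0.71, -0.37 and -0.27 with siDONSON-1, siDONSON-2 and siDONSON-3. All were below 0, with a mean of -0.45 (SE 0.15, limma adjusted p = 0.118). The limma adjusted p was 0.0498 without the EBC-1 array and likewise without the SK-MES-1 array, and 0.0335 under normexp and loess (mean -0.32). *ZEB2* had 1.17, 0.22 and 1.12, with a mean of 0.83 (SE 0.27, limma adjusted p = 0.114). The siDONSON-2 value was the lowest of the 3. The green levels of *ZEB2* on these arrays, 5.71, 6.20 and 5.95, were near the lowest counted as above background (5.23, 5.11 and 5.22). Of its 3 probes, 1 was not above background in green on any SBC-3 array. The lowest mean of *ZEB2* over the alternatives was 0.12.

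The siRNAs also differed in other genes. *VIM* had -0.27, -0.90 and 0.24 (mean -0.31, SE 0.22, limma adjusted p = 0.41), and *CDH2* had 0.74, 0.06 and 0.13 (mean 0.31, SE 0.15, limma adjusted p = 0.225). *SNAI1* had 0.07, -0.54 and 0.01 (mean -0.15, SE 0.13, limma adjusted p = 0.493), and *ZEB1* had -0.07, 0.22 and 0.45 (mean 0.20, SE 0.14, limma adjusted p = 0.401). Of these genes only *CDH2* kept its sign over the 3 arrays. *FN1* had -0.40, -0.18 and 0.52 near background (mean -0.02, SE 0.22, limma adjusted p = 0.96). The median SD over the SBC-3 arrays was 0.08 for the green level and 0.24 for the red level of a gene, beside 0.06 and 0.09 over the A549 arrays.

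The related genes in SBC-3 are read beside the 3.21% of all genes that were lower and the 4.01% that were higher. Of 23 epithelial genes tested, 2 were lower and 0 higher, which were *KRT19* (mean -1.39, SE 0.13, limma adjusted p = 0.00449) and *CLDN7* (-0.94, SE 0.17, limma adjusted p = 0.024). *KRT19* was therefore lower in both SBC-3 and edited A549 cells, and *CLDN7* was lower in the former and higher in the latter. Of 24 mesenchymal genes, *S100A4*, a calcium-binding protein, was lower (-2.18, SE 0.14, limma adjusted p = 0.000929), and *CD44* and *TPM1* were higher. Without siDONSON-1, siDONSON-3 or any edited A549 array the count of higher mesenchymal genes was 0. Without siDONSON-2 or siDONSON-3 the count of lower epithelial genes was 1. Calls over all genes were 1043, and 465, 1115 and 97 without siDONSON-1, siDONSON-2 and siDONSON-3. They were 440, 386 and 387 without GE1, GE2 and GE3. *FOXC1* was the only one of 30 regulators to pass, and it was higher (0.51, SE 0.11, limma adjusted p = 0.0365), but 0 passed without siDONSON-3 or any edited A549 array and 3 without either LUSQ array.

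After *miR-150-3p* transfection of the LUSQ lines, 0 of 6 genes tested over both arrays passed the limma test, beside 2.9% of 14229 genes that were lower and 2.47% that were higher. At an unadjusted p under 0.05 there was 1, *SNAI2*, again without a counted share of all genes. *CDH1*, *ZEB2*, *TWIST1* and *FN1* had no counted value on both arrays and were not tested. The test takes EBC-1 and SK-MES-1 as 2 samples, so the values of each line are also given with the software's error, which covers the noise of an array and not that of a culture.

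In EBC-1, 0 of 7 genes with a value were below a log2 ratio of -1 (6.04% of all genes) and 0 were above 1 (5.96%). There were 3 outside the software's 95% limits, but the share of all genes outside such limits was not counted. *VIM* had -0.96 (error 0.22), *SNAI2* had -0.95 (error 0.26) and *CDH1* had 0.41 (error 0.21). Only *VIM* stayed outside these limits under both median centering (-1.04) and normexp with loess (-0.89). *CDH1* lay just past its limit of 0.407 and was within it at 0.33 and 0.40 in these settings, and *SNAI2* was -1.03 and -0.22, the latter within its limit of 0.515. *CDH2* had -0.25, *EPCAM* -0.19 and *SNAI1* 0.07, all within the limits, and *ZEB1* had 0.52 with an error of 0.49 near background.

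In SK-MES-1, 0 of 8 genes with a value were below -1 (1.27% of all genes) and 0 were above 1 (2.57%). *FN1*, at -0.69 (error 0.22), was the only gene of the 8 outside the limits, and here too no share of all genes was counted. Under normexp and loess *FN1* had -0.30, within its limit of 0.424. *VIM* had -0.17 and *SNAI2* had -0.18, with the same sign as in EBC-1 and a smaller size. *SNAI1* had -0.13, *EPCAM* 0.06, *CDH2* and *ZEB1* -0.01 each, and *TWIST1* 0.

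Over both lines *SNAI2* had a mean of -0.57 (SE 0.19, limma adjusted p = 0.1) and *VIM* a mean of -0.57 (SE 0.27, limma adjusted p = 0.195). With the SK-MES-1 array left out, the *SNAI2* value was that of the lone EBC-1 array (-0.95), which the fit assumes to vary like the other groups. Of the related genes, 0 of 33 epithelial and 0 of 23 mesenchymal genes passed, beside 2.9% of all genes that were lower and 2.47% that were higher. Of 32 regulators, 2 were lower, among them *CTBP1* (-1.06, SE 0.11, limma adjusted p = 0.00957), a corepressor that binds ZEB factors. *LATS2* (0.96, SE 0.20, limma adjusted p = 0.0428) and *TGFBR2* (0.78, SE 0.18, limma adjusted p = 0.0499) were the 2 higher regulators, and without any of the 3 edited A549 arrays these counts were 1 lower and 0 higher. Over all genes the calls without GE1, GE2 or GE3 fell as well, from 765 to 66, 51 and 78. The regulator counts also changed without the EBC-1 array or without the SK-MES-1 array, where the group holds 1 array.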

How the data were processed

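The authors deposited Agilent Feature Extraction output (version 12.1.1.1) for each array. In the deposited files the processed intensities of both channels had been background-subtracted and dye-normalized by the software, and the deposited log10 ratios of the whole-series table equal those of the arrays (largest difference 0). Control spots and spots marked as outliers were left out. Log2 ratios were computed from processed intensities. Probes entered an array's values where they were well above background in at least 1 channel, and genes are means over counted probes. Green levels were normalized between arrays with Aquantile. Names came from RefSeq accessions (24782 of 50096 matched), and the array files use an older build, so no probe position is given.

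limma 3.58.1 (R 4.3.3) fitted 3 group means to all 8 arrays for ratios, tested against 0, with at most 5 residual degrees of freedom, and 4 line means for levels, with 4. Benjamini-Hochberg adjustment was over all genes at a threshold of 0.05. The fits were tested on simulated data. No probe was saturated, and the small number of arrays is among the limits on precision. A test against 0 leaves out the control's own spread and does not remove gene-specific dye bias. All arrays lie on 1 slide, so a slide block could not be fitted.

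The named genes are the 10 members, the targeted genes, the 3 genes most like *CDH1* and *ZEB1* over the lines, and the largest calls of each related list in edited A549 cells. Some genes of these lists are not reported here. The other list genes named were chosen after their values were seen, as ones past the limma test or, on the EBC-1 array, past a log2 ratio of 1 in either direction. The members and lists were chosen with earlier results of these data known. The alternatives were normexp (offset 50, on median signals) with loess, median centering, other filters on dim and marked spots, the brightest probe, the other groups subtracted, each group alone, other scaling of levels (75th percentile) and leaving out each array. The deposited software log ratio was added after seeing the data.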

Additional observations from a re-analysis of the deposited data

Results flagged for a closer look

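The lines given *miR-150-3p* were compared for opposite signs, with 1 array each. Of 6 genes with a value in both, 3 had opposite signs, and the difference was not tested. *ZEB1* differed between EBC-1 and SK-MES-1 by 0.53 (log2 ratio, EBC-1 minus SK-MES-1), *EPCAM* by -0.25 and *SNAI1* by 0.20. None of these values fell outside the 95% limits set by the software's own error. Under median centering *SNAI1* was also below 0 in EBC-1 (-0.014), so its signs were then the same. Under normexp and loess *ZEB1* was above 0 in both EBC-1 (0.052) and SK-MES-1 (0.042). The main *ZEB1* value in EBC-1 came from 1 of its 2 probes, near background.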

How the results depend on the processing

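*SNAI1*, *FN1* and *EPCAM* in edited A549 cells kept their direction and their call in every alternative that gave them a value. *CDH1* lost its call only without GE2 or GE3. There were 1733 comparisons of a result with an alternative, counts of calls among them. Sign changes of lone-array values within the software's limits, such as *CDH2* in SK-MES-1 (-0.009, and 0.026 under normexp and loess), were not counted as turns. Direction turned in 14 comparisons of tested means or levels, for results that had not passed the test. With the other groups subtracted (done as a contrast, so that the error includes the subtracted arrays), these were *FN1* (1.28), *VIM* (0.052) and *ZEB1* (-0.002) with siDONSON, and *SNAI2* (0.23), *VIM* (0.19) and *ZEB1* (-0.051) in edited A549. With an array left out, means crossed 0 for *FN1* (-0.29 to 0.17, and 0.06 without siDONSON-2) and *SNAI1* (-0.27 to 0.040) with siDONSON, and for *EPCAM* (-0.19 to 0.063), *SNAI1* (-0.13 to 0.066) and *ZEB1* (-0.011 to 0.52) with *miR-150-3p*. *CDH1* between SK-MES-1 and SBC-3, near background, was -0.40 under 75th percentile scaling and -5e-04 under normexp. The count of the 10 genes called was 2 with the other groups subtracted (7 tested, without *CDH1*, *EPCAM* and *ZEB2*) and 8 with each group alone for edited A549, and 1 for siDONSON under normexp or with the other groups subtracted. Without 1 array it was 3 to 6 for edited A549, 0 to 1 for siDONSON and 0 to 1 for *miR-150-3p*. Over all genes, edited A549 had 2229 calls, 5375 without a filter on dim probes, 934 with the other groups subtracted, 5873 alone and 470 to 2889 without 1 array. siDONSON had 1043, 2897 unfiltered, 26 alone and 97 to 1409. *miR-150-3p* had 765, 1535 under normexp, 198 unfiltered, 225 subtracted, 0 alone and 1 to 2823. Median centering moved the higher share of calls from 55.5% to 43.8% for siDONSON, from 46% to 33.9% for *miR-150-3p* and from 52.8% to 44.6% for edited A549, where it was 27.2% without a filter on dim probes. The array numbers name different siRNAs and edited cells, and same-numbered arrays did not deviate together (correlations -0.01, -0.03 and 0.01). With the number as a replicate block, 9 of the 10 genes still passed between SBC-3 and A549, *ZEB2* being the exception (adjusted p = 0.0955, limma). Probes near background limit *SNAI2* in A549, *FN1* and *TWIST1* in SBC-3, *ZEB2* in SBC-3 and A549, and *ZEB1* in EBC-1.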

Other observations

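Values of the related genes on the EBC-1 array are given here. Of 39 epithelial genes with a value, 5 had a log2 ratio above 1 and 0 were below -1, among them *CDH3* (1.42), *CGN* (1.33), *TJP3* (1.03) and *CLDN3* (1.02). Of 25 mesenchymal genes, 6 were above 1, among them *SPARC* (2.22, error 0.77), *THBS1* (1.45) and *CCN2* (1.38), and 1 was below -1, the receptor *AXL* (-1.24). Over all genes of this array 5.96% were above 1 and 6.04% below -1. Of 33 regulators, 5 were below -1, among them *FOXQ1* (-2.09), *SOX9* (-1.61) and *ID2* (-1.31), and 3 were above 1, which were *LATS2* (1.39), *FOXA1* (1.1) and *TGFBR2* (1.09). On the SK-MES-1 array 0 of 33 epithelial genes and 0 of 39 regulators passed either limit, and 1 of 31 mesenchymal genes was below -1. These are values of 1 array per line with no test.

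*LOXL2* itself had green levels of 13.72 in EBC-1, 12.64 in SK-MES-1, 10.40, 10.50 and 10.45 in SBC-3, and 13.22, 13.19 and 13.20 in A549. On the siDONSON arrays its log2 ratio was -0.81, 0.56 and 0.22, with both signs among the siRNAs.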
